A study of Mus musculus with 96 samples.

Results

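The 8 genes described here, Fkbp5, Tsc22d3, Zbtb16, Sgk1, Errfi1, Pdk4, Plin4 and Mt2, are among the genes best known to be induced by glucocorticoid hormones in mouse brain. They were chosen by name for that property and not by a rule on their values, though with earlier results of these data known. They are 8 of the 35486 gene symbols in the deposited count table. The study asked how repeated injections of plasma from young mice alter gene expression in brain regions of older mice. Injection itself is a handling stress, so the 8 genes were read in every group to see whether such a stress left a trace. Bulk mRNA was sequenced as 96 libraries from 38 male C57BL/6J mice, with cerebellum, cortex and hippocampus taken from each of 29 mice and hippocampus alone from 9 mice of a second experiment. None of the mice carried a named transgene or mutation.

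The injected groups of the first experiment were mice given plasma (n = 5) or PBS, the salt solution that served as vehicle (n = 4), on 7 consecutive days at 18 months of age. The same 2 treatments were given at 22 months (n = 3 each). Injections on 24 consecutive days, called long here, were given with plasma (n = 3) or PBS (n = 4) to mice sampled at 19 months. Mice never injected, called naive, were sampled at 18 months (n = 3) and as young adults (n = 4, 2 months in the labels and 3 months in the series design). In the second experiment plasma (n = 5) and PBS (n = 4) were compared at 18 months. The interval between the last injection and dissection is not given in the sources used here.

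Glucocorticoids are released by the adrenal cortex under the control of the hypothalamus and pituitary. They enter cells and bind the glucocorticoid receptor, Nr3c1, which leaves its chaperones, moves to the nucleus and binds short palindromic DNA elements. In brain the mineralocorticoid receptor, Nr3c2, binds the same hormone with higher affinity and is most abundant in hippocampal neurons. Fkbp5 is a co-chaperone that lowers the receptor's affinity for hormone and so closes a feedback loop. Tsc22d3 (the leucine zipper protein GILZ) and Zbtb16 (PLZF) are transcriptional regulators, Sgk1 is a kinase that regulates ion channels and transporters, and Errfi1 is an inhibitor of the epidermal growth factor receptor. Pdk4 restrains the use of glucose by inhibiting pyruvate dehydrogenase, Plin4 coats lipid droplets, and Mt2 is a metallothionein that binds zinc and copper.

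The receptor's full element is a palindrome, AGAACA and TGTTCT with 3 bases of any kind between them. It was sought, together with a second form that ends in TGTACC and with AGAACA alone as the short motif, on both strands in the 250 bases before each start site that RefSeq lists on GRCm38.p6. Of 32851 such windows, 3 held the full palindrome (0.00913%), and 1 of them was a window of Sgk1. The second form was in 0 windows, and 5284 windows (16.1%) held the short motif, which is part of both longer motifs. Windows were listed for 7 of the 8 genes, 15 in all, and Zbtb16 was not among them. The short motif was in 4 of the 15, 3 of Sgk1 and 1 of Tsc22d3. The Sgk1 window is shown because it holds the palindrome and because Sgk1 was the member most shared between regions over mice, and the Fkbp5 window is shown beside it as one with no match. Capitals mark every match to the short motif or to the palindrome, the long run being the palindrome. Neither window overlaps an exon in GENCODE M21. The match is a description of the letters and not evidence that the receptor binds there.
Sgk1, chr10:21993640-21993889, plus strand: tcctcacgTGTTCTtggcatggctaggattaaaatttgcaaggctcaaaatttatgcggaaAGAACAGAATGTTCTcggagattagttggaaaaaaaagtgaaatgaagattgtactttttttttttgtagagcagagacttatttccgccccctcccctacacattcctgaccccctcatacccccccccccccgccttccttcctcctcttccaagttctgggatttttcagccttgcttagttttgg
Fkbp5, chr17:28486150-28486399, minus strand: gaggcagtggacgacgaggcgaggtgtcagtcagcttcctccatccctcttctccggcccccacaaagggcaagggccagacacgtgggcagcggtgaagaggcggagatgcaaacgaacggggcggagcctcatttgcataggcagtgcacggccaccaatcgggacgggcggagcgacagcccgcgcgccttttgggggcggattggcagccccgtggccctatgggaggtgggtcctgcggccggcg
The Sgk1 palindrome is AGAACAGAATGTTCT at chr10:21993701-21993715, beginning 189 bases before the start site.

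Libraries held 851288 to 23768385 counts (median 8889509). Of the 96, 7 were under 2500000 counts and 9 had a low mean of their own region's neuron markers, below their region's median by over 3 median absolute deviations, which made 15 with either. Markers of the labelled region were present in each region, and Gabra6, a cerebellar granule cell gene, had a median of 405 counts in each 1000000 of a library (CPM) over the cerebellum libraries and of 0 in cortex and in hippocampus. Some markers separated the regions less. The cortical marker Fezf2 had medians of 24.5 CPM in cortex and 42.4 CPM in hippocampus. The hippocampal marker Prox1 had 83.5 CPM in hippocampus and 68.2 CPM in cerebellum. Among hippocampus libraries, those of animals 14 and 24 had the lowest means of their own markers. All 8 genes passed the filter on low counts in every fit, although the lowest library count was 3 (Plin4 in cortex) and counting error is then large. In bulk tissue, fewer cells of a type and less RNA per cell cannot be told apart. Libraries do not mark strand, so where Fkbp5, Plin4, Errfi1 and Mt2 overlap genes annotated on the opposite strand, the reads cannot be told apart. These genes are AC154912.1 and Gm22146 for Fkbp5, Hdgfl2 for Plin4, 1700045H11Rik for Errfi1 and Gm45774 for Mt2. Overlap was judged on whole gene spans and not on exons.

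The strongest differences in the 8 genes lay between regions. Fkbp5 (chr17:28399094-28517527) averaged 64.8 ± 11.8 CPM in hippocampus, 28.6 ± 4.47 CPM in cortex and 10.5 ± 2.77 CPM in cerebellum (SD, n = 29 each). Its lowest hippocampus library, at 37.5 CPM, lay within the cortex range of 21.2 to 39.8 CPM, and its highest cerebellum library, at 15.3 CPM, lay below every cortex library. That hippocampus library and the highest cortex library both came from young naive animal 14, and both had low neuron markers. Without libraries of low depth or low markers, hippocampus began at 52.0 CPM and cortex ended at 35.0 CPM. In a fit of 87 libraries with edgeR's quasi-likelihood test, Fkbp5 was 6.73-fold higher in hippocampus than in cerebellum (95% interval 6.06 to 7.47, higher in 29 of 29 mice), 3.05-fold higher in cortex than in cerebellum (2.74 to 3.40, 29 of 29 mice) and 2.20-fold higher in hippocampus than in cortex (2.01 to 2.41, 28 of 29 mice). Zbtb16 (chr9:48654297-48836222) had the same order, with 86.4 ± 16.7 CPM in hippocampus, 60.3 ± 14.6 CPM in cortex and 15.9 ± 5.36 CPM in cerebellum, and was 6.42-fold higher in hippocampus than in cerebellum.

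Tsc22d3 (chrX:140539528-140600659) ran the other way. It averaged 91.3 ± 18.4 CPM in hippocampus, 110 ± 17.6 CPM in cortex and 150 ± 19.3 CPM in cerebellum, and its log2 fold change for hippocampus over cerebellum was -0.58 ± 0.06 (SE), lower in hippocampus in 29 of 29 mice. Errfi1 (chr4:150853919-150868892) and Mt2 (chr8:94172664-94173568) were lowest in cortex. Errfi1 averaged 49.1 ± 8.04 CPM in hippocampus, 33.3 ± 2.99 CPM in cortex and 55.4 ± 7.51 CPM in cerebellum, and Mt2 averaged 50.7 ± 9.48, 31.5 ± 6.45 and 57.6 ± 12.7 CPM in the same order of regions. Pdk4 (chr6:5483351-5496309) was lowest in cerebellum, at 7.53 ± 1.74 CPM, against 8.99 ± 1.55 CPM in cortex and 9.38 ± 2.04 CPM in hippocampus. Cortex and hippocampus did not differ beyond error for Pdk4 (log2 difference 0.03 ± 0.06, hippocampus over cortex).

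Sgk1 (chr10:21882184-21999903) showed no called difference between any regions, with 86.4 ± 23.6 CPM in hippocampus, 80.1 ± 19.6 CPM in cortex and 92.3 ± 20.2 CPM in cerebellum. The 95% interval of its fold for hippocampus over cerebellum was 0.903 to 1.17. Plin4 (chr17:56100591-56109803) had few counts in most libraries and averaged 4.01 ± 1.22 CPM in hippocampus, 3.46 ± 1.5 CPM in cortex and 4.96 ± 2.15 CPM in cerebellum, and also had no called difference. In all, 6 of 8 genes passed an adjusted p of 0.05 for cortex over cerebellum (83.3% of 19490 genes did), 4 of 8 for hippocampus over cerebellum (84.1%) and 5 of 8 for hippocampus over cortex (60.3%), shares near or below those of all genes. Without scaling factors the median of all genes shifted by 0.17 (cortex over cerebellum) and 0.15 (hippocampus over cerebellum) on the log2 scale, and Sgk1 and Plin4 were then called lower in cortex than in cerebellum, and Errfi1 and Mt2 lower in hippocampus than in cerebellum.

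**Figure D1:**
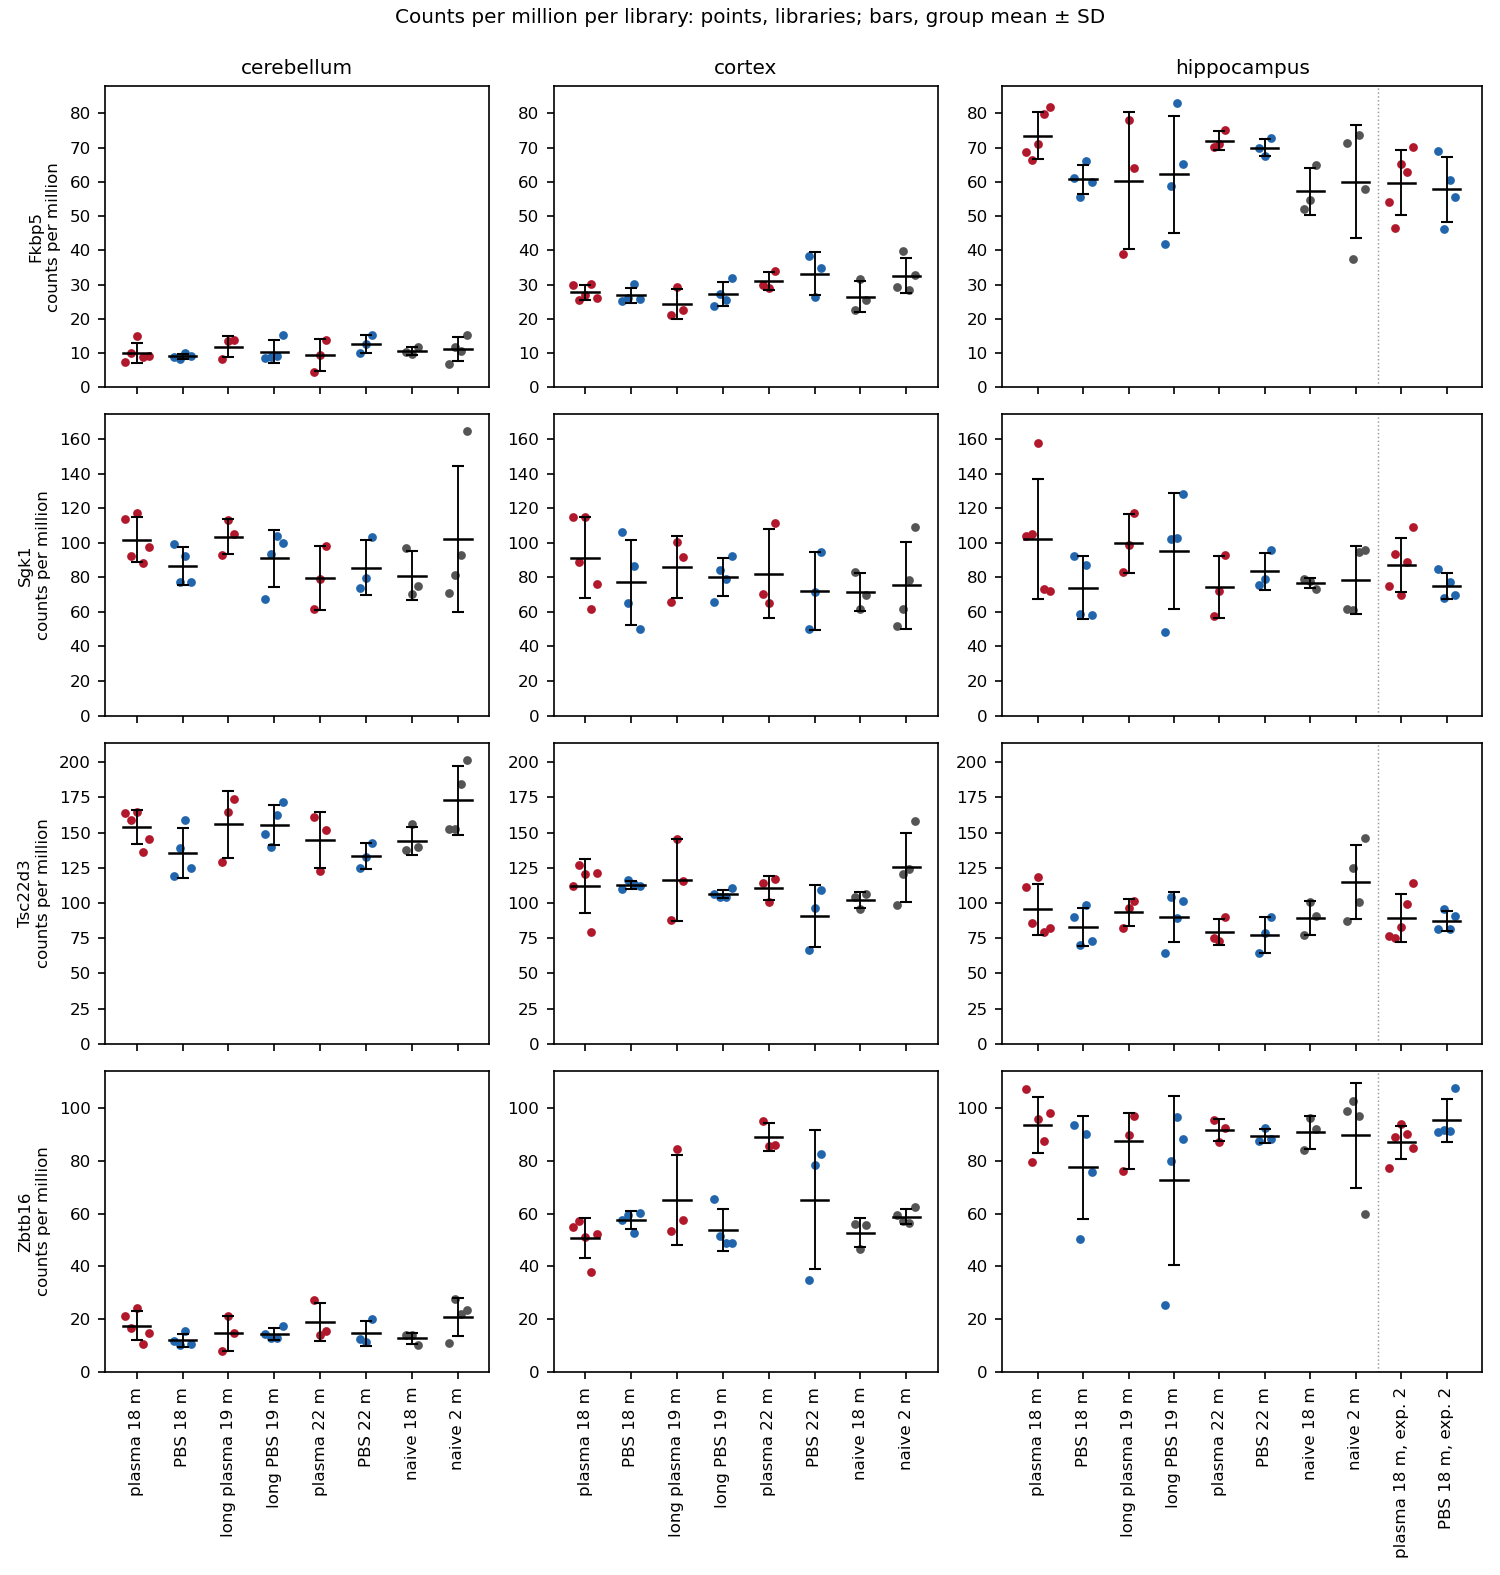
CPM of Fkbp5, Sgk1, Tsc22d3 and Zbtb16 in every library, by group and region. Points are libraries and bars are group means ± SD; red is plasma, blue PBS and grey naive. Fkbp5 and Zbtb16 step up from cerebellum to hippocampus, Tsc22d3 steps down, and within a region the injected groups overlap the naive mice in most panels.

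PBS injections on 7 days left no called difference in any of the 8 genes. With p-values of edgeR's quasi-likelihood test adjusted after Benjamini and Hochberg, over every gene tested, 0 of 8 passed in cerebellum (0% of 17185 genes did), 0 of 8 in cortex (0% of 18769) and 0 of 8 in hippocampus (0% of 18070). At an unadjusted p under 0.05 the counts were 0 in cerebellum (3.32% of all genes), 0 in cortex (3.63%) and 1 in hippocampus (3.54%), the 1 being Plin4. DESeq2 and limma-voom also called 0 of the 8 in each region. The mice with PBS and the naive mice differ in an unexplained number of their titles, which cannot be told apart from injection.

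Fkbp5, the feedback co-chaperone, had 61.2, 55.5, 66.0 and 60.0 CPM in hippocampus of PBS mice, against 52.0, 54.7 and 65.1 CPM in naive mice of 18 months. The groups overlapped. In cortex it had 25.2, 26.1, 30.2 and 25.9 CPM in PBS mice, against 22.6, 31.5 and 25.4 CPM in naive mice, and in cerebellum 8.74, 8.28, 10.1 and 9.01 CPM in PBS mice, against 10.4, 9.65 and 11.8 CPM in naive mice. Its log2 fold changes, PBS over naive, were 0.07 ± 0.22 in hippocampus, -0.03 ± 0.15 in cortex and -0.23 ± 0.24 in cerebellum (SE). The upper 95% limits of the fold were 1.43, 1.21 and 1.20 in the same order, and larger increases lay outside these intervals. The PBS hippocampus values of 55.5 and 60.0 CPM came from libraries with low neuron markers, while the naive hippocampus libraries of 18 months were not low in them. Averaged over the 3 regions of each mouse and tested with limma, the fold of Fkbp5 was 0.973 (95% interval 0.799 to 1.19).

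Among the transcriptional regulators, Tsc22d3 had 110, 116, 114 and 112 CPM in cortex of PBS mice, against 104, 96.1 and 106 CPM in naive mice. The groups did not overlap there, with a log2 fold change of 0.15 ± 0.17 that did not pass the test. In hippocampus and cerebellum its log2 fold changes were -0.12 ± 0.18 and -0.08 ± 0.11. Zbtb16 had log2 fold changes of -0.24 ± 0.26 in hippocampus, 0.15 ± 0.21 in cortex and -0.13 ± 0.29 in cerebellum, with overlapping groups in each. Of its PBS hippocampus libraries, those at 50.5 and 75.6 CPM had low neuron markers.

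Sgk1 spread widely within groups. In cortex it had 106, 65.2, 86.6 and 50.3 CPM in PBS mice, against 83.2, 61.7 and 69.9 CPM in naive mice, and in hippocampus 92.1, 58.8, 87 and 58.1 CPM in PBS mice, against 79.0, 77.9 and 73.4 CPM in naive mice. The naive values lay inside the range of the PBS values in both regions. Its log2 fold changes, PBS over naive, were 0.22 ± 0.28 in cortex, -0.06 ± 0.28 in hippocampus and 0.05 ± 0.19 in cerebellum. Errfi1 in cortex had 34.7, 35.4, 35.8 and 31.8 CPM in PBS mice, against 30.8, 30.4 and 29.4 CPM in naive mice, with no overlap and a log2 fold change of 0.20 ± 0.11 (unadjusted p = 0.0785, adjusted p = 1).

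Of the metabolic genes, Pdk4 in cortex was lower in injected than in naive mice of 18 months, without passing the test. It had 8.49, 9.84, 7.37 and 10.3 CPM in cortex of PBS mice, against 12.7, 10.3 and 10.8 CPM in naive mice. With the plasma mice of 18 months (6.73, 8.16, 8.80, 7.92 and 7.32 CPM) included, its log2 fold change was -0.41 ± 0.15 (edgeR unadjusted p = 0.00857, adjusted p = 1). In CPM all injected mice of 18 months lay below all naive mice of that age. The nearest were a PBS mouse at 10.26 CPM and a naive mouse at 10.30 CPM. With the scaling factors of the fit of 87 libraries these groups overlapped, with PBS mice up to 10.69 and naive mice down to 10.62. Scaled in that way, Pdk4 in hippocampus averaged 12.4 ± 2.67 CPM (SD) in naive, 9.87 ± 0.457 in PBS and 9.15 ± 2.20 in plasma mice of 18 months. In cerebellum these means were 7.22, 7.98 and 6.48 CPM. The change of Pdk4, PBS over naive, did not differ beyond error between hippocampus and cortex (log2 difference 0.06 ± 0.27, SE). Groups did not overlap for 3 of the 8 genes in cortex for PBS against naive (4.91% of all genes) and for 2 of 8 for PBS and plasma against naive (0.789%), namely Pdk4 and Errfi1. In cerebellum and hippocampus the count was 0 of 8 for both comparisons (5.03% and 6.94% of all genes for PBS, 0.518% and 0.952% for PBS and plasma). Of the cortex libraries, naive replicate 3 and PBS replicate 11 were under 2500000 counts, with 23 and 21 counts of Pdk4.

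Plin4 had the largest difference of the 8, in hippocampus. It had 4.08, 4.30, 2.83 and 4.20 CPM in PBS mice and 4.17, 2.41, 6.05, 4.32 and 5.81 CPM in plasma mice, against 3.13, 1.46 and 2.00 CPM in naive mice of 18 months. The groups overlapped. The log2 fold change was 0.90 ± 0.31 for PBS over naive (edgeR unadjusted p = 0.00728, adjusted p = 1) and 1.06 ± 0.28 for PBS and plasma over naive (unadjusted p = 0.000771, adjusted p = 1). The naive values rest on 8, 6 and 28 counts. The young naive mice, never injected, had 3.17, 5.53, 4.04 and 3.85 CPM, within the range of the injected mice, and naive mice of 18 months lay below them all (log2 fold change -1.07 ± 0.30, 18 over 2 months, adjusted p = 0.377). In cortex and cerebellum the log2 fold changes of Plin4, PBS over naive, were -0.07 ± 0.44 and 0.15 ± 0.35. Oligodendrocyte markers moved beside it in hippocampus. All 9 were lower in PBS mice than in naive mice (median log2 fold change -0.56), 8 of them with an unadjusted p under 0.05 (3.54% of all genes), and none passed the adjusted test. Their summed level ranged from 4110 to 4907 CPM in PBS mice and from 5876 to 8305 CPM in naive mice, and their part in the Plin4 values was not tested. The hippocampus libraries of PBS animals 5 and 11 had low neuron markers, and those of naive mice of 18 months did not.

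Mt2 had log2 fold changes of -0.22 ± 0.20 in hippocampus, -0.06 ± 0.18 in cortex and -0.03 ± 0.20 in cerebellum, PBS over naive. No gene of the 8 had a called difference between regions in its response to PBS, with or without the mouse in the fit (0%, 0.00513% and 0% of 19490 genes were called in the 3 comparisons of regions without it). In the mean over the 3 regions of a mouse, 0 of 8 genes passed limma's test for PBS over naive or for PBS and plasma over naive (0% of 16500 genes in both), and the lowest unadjusted p was that of Pdk4, 0.0222, with a log2 fold change of -0.26 ± 0.11 for PBS and plasma.

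**Figure D2:**
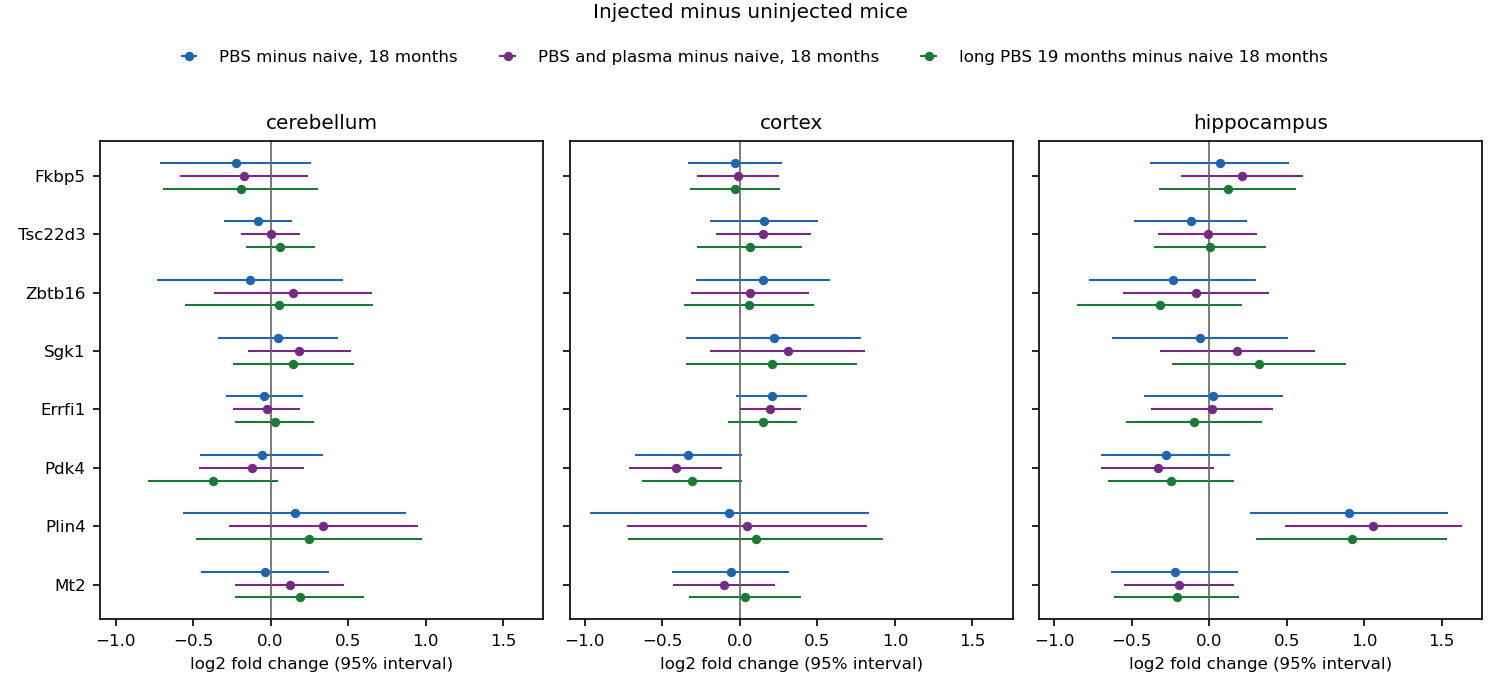
Log2 fold changes with 95% intervals of the 8 genes for 3 comparisons of injected with naive mice, by region. Intervals include 0 for Fkbp5, Tsc22d3, Zbtb16, Sgk1 and Mt2 in every panel; those of Plin4 in hippocampus and of Pdk4 in cortex for PBS and plasma do not, and neither gene passed the adjusted threshold.

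After PBS injections on 24 days the 8 genes again gave no called difference. For long PBS at 19 months over naive at 18 months, 0 of 8 genes passed in cerebellum (0.00582% of all genes), cortex (0%) and hippocampus (0%). Age, by a month, and title number also differ between these groups and cannot be told apart from the injections. At an unadjusted p under 0.05 the counts were 0, 0 and 1 of 8 (6.63%, 2.8% and 3.04% of all genes). Fkbp5 had log2 fold changes of -0.19 ± 0.25, -0.03 ± 0.14 and 0.12 ± 0.21 in those regions. Plin4 in hippocampus had 2.97, 2.75, 4.49 and 5.02 CPM in long PBS mice, which gave 0.92 ± 0.30 over the same 3 naive mice, and Pdk4 in cortex gave -0.31 ± 0.16. Groups did not overlap for 0 of 8 genes in cerebellum (8.02% of all genes), 1 in cortex, Pdk4 (4.9%), and 0 in hippocampus (3.77%). Both share their naive mice with the comparisons above. Long PBS over PBS for 7 days, which differs in the number of injections and also in age and title number, which cannot be told apart from it, called 0 of 8 genes in each region (0% of all genes in each), and 0 of 8 had an unadjusted p under 0.05 in each region (7.66%, 4.16% and 3.7% of all genes in cerebellum, cortex and hippocampus). In none of the 8 did the groups lie apart (4.78%, 3.91% and 2.72% of all genes).

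**Figure D3:**
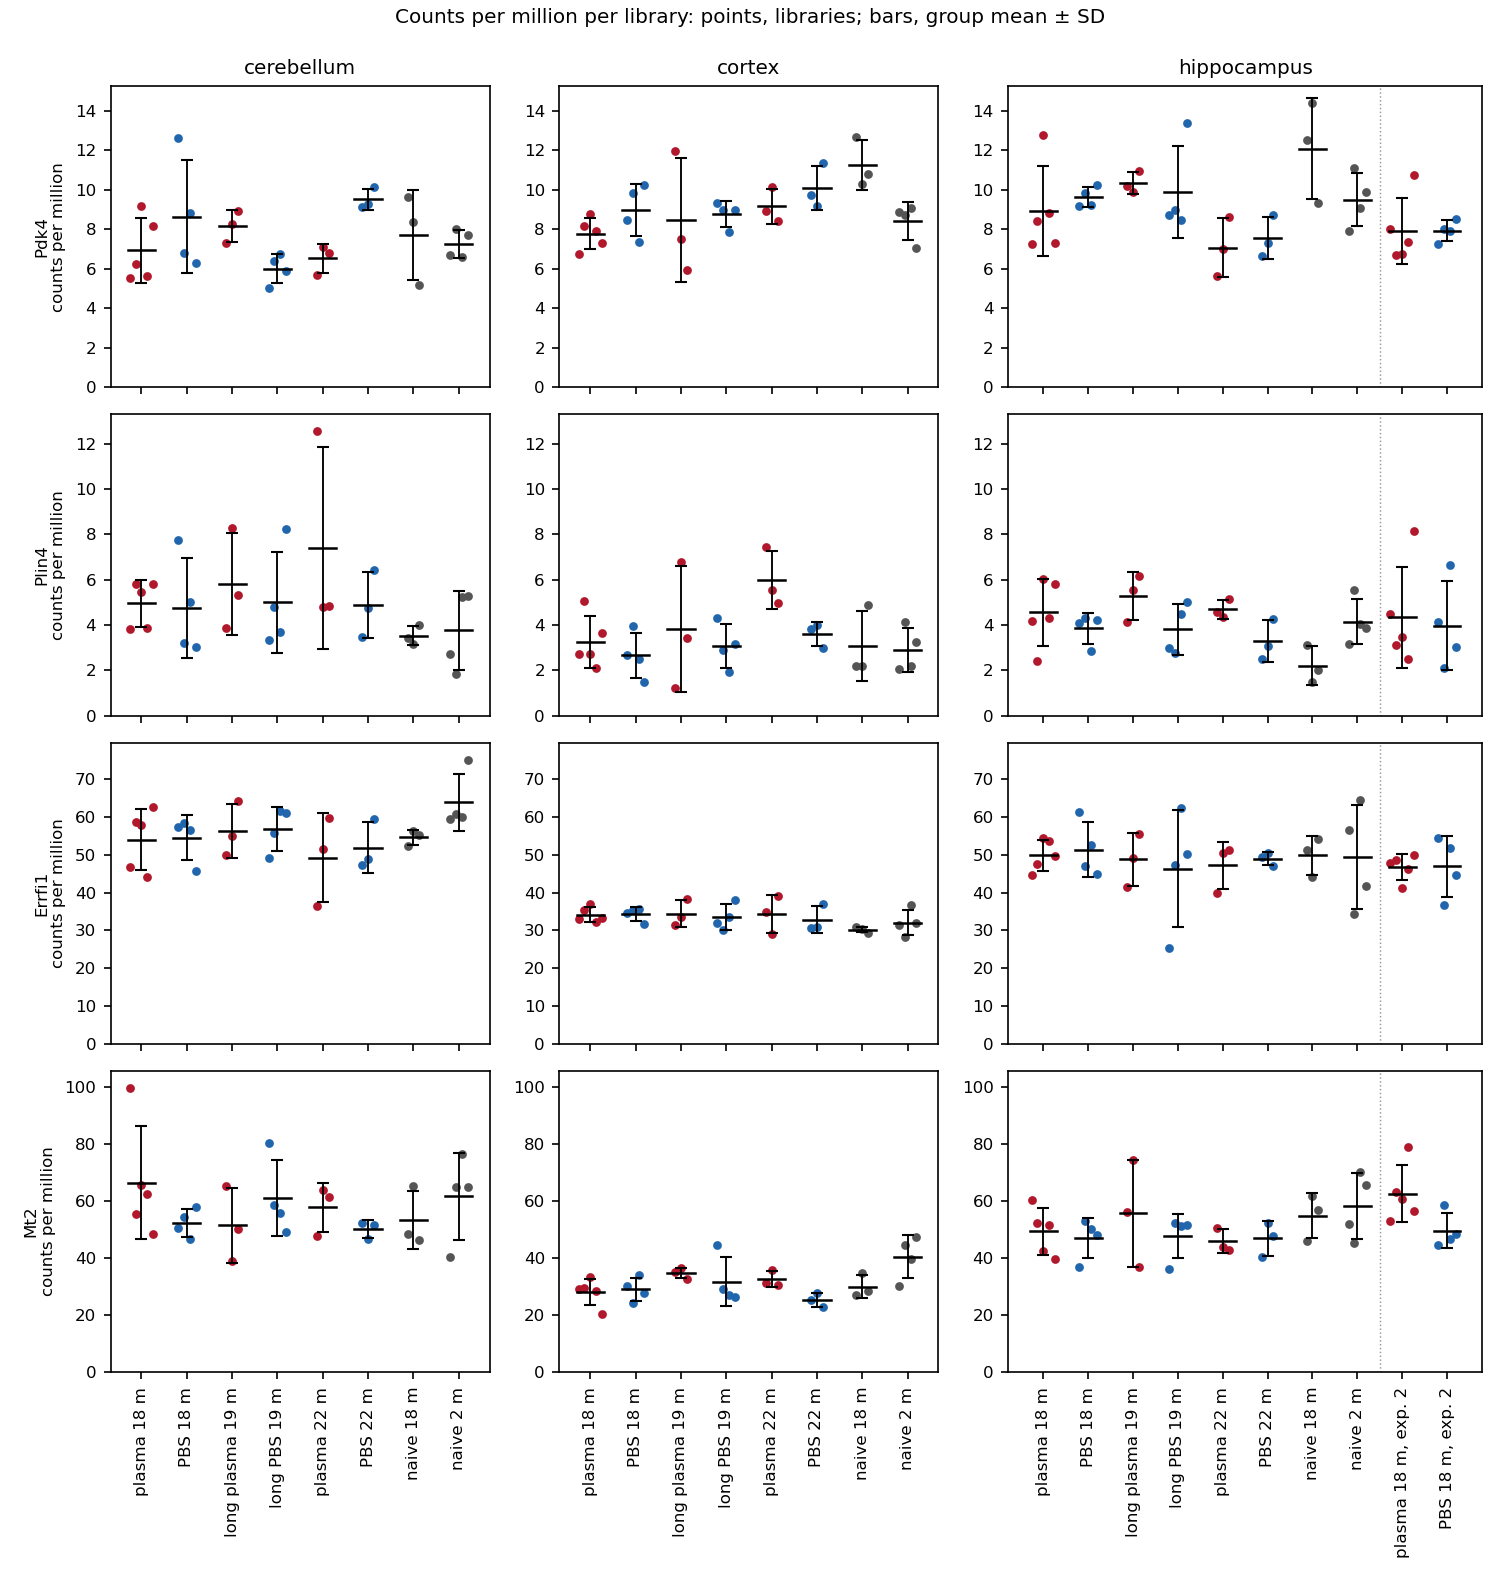
CPM of Pdk4, Plin4, Errfi1 and Mt2 in every library, by group and region. Points are libraries and bars are group means ± SD; red is plasma, blue PBS and grey naive. The 3 naive mice of 18 months are the lowest group for Plin4 in hippocampus and the highest for Pdk4 in cortex.

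Other glucocorticoid-induced genes gave no called difference either. The list held 25 genes, among them Per1, Klf9, Dusp1, Nfkbia, Ddit4 and Cebpd, and all 25 were tested. For PBS over naive, 12 were higher and 13 lower in cerebellum (median log2 fold change -0.01), 13 higher and 12 lower in cortex (0.01), and 4 higher and 21 lower in hippocampus (-0.13). None was called by edgeR, 1, 2 and 0 had an unadjusted p under 0.05 in that order, and the medians of all genes lay within 0.01 of 0. Of the receptors and steroid-handling genes, with Nr3c1 and Nr3c2, 0 of the 11 tested were called in each region and 0 had an unadjusted p under 0.05; in hippocampus 10 of the 11 were lower (median log2 fold change -0.05). Immediate early genes are switched on in neurons within minutes of stimulation. In cortex all 10 were lower in PBS mice (median -0.36), in hippocampus 9 of 10 were (median -0.56), and in cerebellum 6 of the 9 tested were (median -0.06). None was called, and 0, 2 and 0 had an unadjusted p under 0.05 in that order (3.63%, 3.54% and 3.32% of all genes). Of 15 clock genes, 14 were higher in cortex (median 0.14), 11 in cerebellum (0.14) and 8 in hippocampus (0.00). Again 0 were called, and 2, 5 and 1 had an unadjusted p under 0.05 in that order (3.63%, 3.32% and 3.54% of all genes). The time of day of dissection is not given in the sources used here.

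Between plasma and PBS, 0 of the 8 genes passed in any region at 18 months, at 22 months or after injections on 24 days (0% of all genes were called by edgeR in each of the 9 comparisons), nor in the second experiment (0%). DESeq2 and limma-voom also called 0 of the 8 in each. Long plasma and long PBS mice shared no title number, so the number cannot be told apart from the fluid there. At 18 and 22 months of the first experiment only some mice shared a number across fluids, and in the second experiment all did. At an unadjusted p under 0.05, 18-month mice gave 1 of 8 in cerebellum (4.05% of all genes), 0 in cortex (4.06%) and 0 in hippocampus (2.43%). At 22 months the counts were 1 in cerebellum (2.28%), 2 in cortex (5.64%) and 0 in hippocampus (1.68%). Long plasma against long PBS gave 1 in cerebellum (6.67%), 0 in cortex (3.52%) and 0 in hippocampus (3.91%), and the second experiment gave 2 (7.96%). The genes in these counts were Pdk4 in the 22-month and long comparisons of cerebellum, Mt2 and Sgk1 (0.25 ± 0.11) in the second experiment, and Zbtb16 in 18-month cerebellum (0.55 ± 0.26). The Sgk1 value was 0.16 ± 0.09 without plasma replicate 76 (unadjusted p = 0.102). In 22-month cortex they were Zbtb16 (0.45 ± 0.20) and Plin4 (0.73 ± 0.34), and the groups of 3 of 8 genes did not overlap there (10.3% of all genes). The Zbtb16 value rests on animal 15, a PBS mouse whose cortex library had low neuron markers and 34.9 CPM of Zbtb16. Without it the log2 fold change was 0.14 ± 0.15 (unadjusted p = 0.354). For Plin4 it was 0.52 to 0.87 with each mouse of the 2 groups left out in turn, and the unadjusted p was 0.05 or more without animal 15, 16 or 21. Elsewhere the number of genes whose groups did not overlap was 1 in cerebellum (8.08%) and 1 in hippocampus (8.01%) at 22 months, and 0 in cerebellum (1.32%) and 0 in cortex (1.48%) at 18 months. For long plasma it was 1 in cerebellum (6.01%), 0 in cortex (6.89%) and 0 in hippocampus (3.64%), and 0 in the second experiment (2.98%).

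At 18 months Fkbp5 in hippocampus had 68.7, 66.3, 71.0, 79.7 and 81.7 CPM in plasma mice, against 61.2, 55.5, 66.0 and 60.0 CPM in PBS mice, with no overlap (1 of 8 genes, 1.2% of all genes) and a log2 fold change of 0.29 ± 0.19 (unadjusted p = 0.133). In the second experiment the values overlapped, with 54.1, 46.5, 65.3, 62.8 and 70.2 CPM in plasma mice, against 69.2, 46.3, 60.4 and 55.6 CPM in PBS mice. Hippocampal neuron markers, summed over 6 genes, ranged from 349 to 441 CPM in plasma mice and from 217 to 417 CPM in PBS mice of the first experiment, and their part in the Fkbp5 values was not tested.

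The lowest unadjusted p for plasma was that of Mt2 in the second experiment. Mt2 had 53.2, 63.3, 60.7, 79.1 and 56.6 CPM in plasma mice, against 44.6, 58.6, 46.8 and 48.4 CPM in PBS mice, with a log2 fold change of 0.38 ± 0.12 (edgeR unadjusted p = 0.00550, adjusted p = 0.578). In the first experiment at 18 months it had 60.3, 52.4, 42.5, 51.8 and 39.8 CPM in plasma mice, against 37.0, 53.0, 50.4 and 48.1 CPM in PBS mice, which overlapped throughout. In cerebellum Pdk4 had 5.70, 7.12 and 6.78 CPM in plasma mice of 22 months, against 10.1, 9.13 and 9.30 CPM in PBS mice, and 7.31, 8.27 and 8.94 CPM in long plasma mice, against 5.02, 6.39, 6.75 and 5.87 CPM in long PBS mice. These groups did not overlap in either comparison, and the directions were opposite (log2 fold changes -0.45 ± 0.20 and 0.41 ± 0.19). The difference between those changes was -0.86 ± 0.27 (edgeR unadjusted p = 0.00352, adjusted p = 0.853, 0% of all genes called). The lowest counts behind these values were 5, in 1 plasma library of 22 months and 1 long PBS library.

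Age gave no called difference in the 8 genes. The groups compared for age, naive or PBS, also differ in the unexplained title number, which cannot be told apart from age. In naive mice, 18 over 2 months, 0 of 8 passed in cerebellum (2.39% of all genes), cortex (0.112%) and hippocampus (0.0719%), and 3, 2 and 1 of 8 had an unadjusted p under 0.05 (15%, 6.18% and 6.39% of all genes). In cerebellum 7 of 8 were lower at 18 months, led by Zbtb16, with 14.1, 13.9 and 10.4 CPM at 18 months, against 10.9, 27.7, 22.0 and 23.5 CPM at 2 months (log2 fold change -0.72 ± 0.28, adjusted p = 0.190). Tsc22d3 had -0.28 ± 0.11 there. Groups did not overlap for 1 of 8 genes in cerebellum (13.6% of all genes), 2 in cortex (6.34%) and 1 in hippocampus (6.31%), among them Pdk4 in cortex, higher at 18 months by 0.35 ± 0.17 on the log2 scale (adjusted p = 0.798). Of the 25 other glucocorticoid-induced genes, 3 fell in cerebellum by edgeR's test and 0 rose. These were Mfsd2a, the lipid transporter of the blood-brain barrier (-0.96 ± 0.25, adjusted p = 0.0318), the cell cycle inhibitor Cdkn1a (-0.65 ± 0.16, adjusted p = 0.0189) and Gpd1, a glycerol phosphate dehydrogenase (-0.40 ± 0.09, adjusted p = 0.0145). Gpd1 was named after its values were seen, since its groups overlapped. Mfsd2a also fell in cortex, to 10.8 CPM on average at 18 months, against 18.7 CPM at 2 months (-0.84 ± 0.15, adjusted p = 0.00974). Each of these calls was lost when some single mice were left out, and over all alternatives the adjusted p reached 0.176 for Mfsd2a in cerebellum, 0.135 for Mfsd2a in cortex, 0.104 for Cdkn1a and 0.227 for Gpd1.

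In cerebellum of naive mice, where title number differs with age, the mineralocorticoid receptor Nr3c2 had 50.9 CPM at 18 months, against 36.9 CPM at 2 months. Its log2 fold change was 0.43 ± 0.09 (edgeR adjusted p = 0.00393), and it passed under all 14 alternatives. Of 15 clock genes, 4 rose there and 0 fell, among them the period genes Per2 (0.64 ± 0.16, adjusted p = 0.0275) and Per3 (adjusted p = 0.00136). Per3 averaged 111 CPM at 18 months, against 78.9 CPM at 2 months, and passed under all 14 alternatives, as did Bhlhe41 and Hlf; the call of Per2 was lost in 5 of 14, with adjusted p up to 0.124. Beside them, 5 of 8 microglia markers rose and 4 of 9 oligodendrocyte markers fell in cerebellum, among them Cldn11 (-0.56), and the part of cell types in these values was not tested. For PBS at 22 over 18 months, 0 of 8 passed in cerebellum (0.157% of all genes), cortex (0.00533%) and hippocampus (0%), and 0, 1 and 0 of 8 had an unadjusted p under 0.05 (15.2%, 10.9% and 7.85%). The 1 was Tsc22d3 in cortex (-0.35 ± 0.16), which had 66.4 CPM in the low-marker library of animal 15, of 22 months, and was -0.16 ± 0.16 without it (unadjusted p = 0.325). Groups did not overlap for 0, 1 and 2 of 8 in that order (15.1%, 9.49% and 10.4%). Outside the cell type markers, the only listed gene called there was the immediate early gene Ier2, which fell in cerebellum to 21.3 CPM on average at 22 months, against 29.8 CPM at 18 months (-0.55 ± 0.12, adjusted p = 0.0474). Its call was lost in 10 of 14 alternatives, DESeq2 and 6 of the single mice left out among them, with adjusted p up to 0.228.

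Sgk1 differed between individual mice in a way that the 3 regions shared. Each value was taken as its deviation from the mean log2 CPM of its group and region, so that treatment and age dropped out. Sgk1 deviations of the 29 mice correlated between cerebellum and cortex with Pearson's r = 0.84 and Spearman's rho = 0.87 (permutation within groups, p = 1e-05 for both, the smallest that 100000 permutations can give), between cortex and hippocampus with r = 0.76 and rho = 0.81 (permutation p = 3e-05 and 4e-05), and between cerebellum and hippocampus with r = 0.74 and rho = 0.80 (permutation p = 2e-05 and 4e-05). Adjusted over all genes, from the partial correlation given the group, p was 0.00497, 0.0123 and 0.0894, so that 1 of 8 genes was called for cerebellum and cortex (0.179% of 16771 genes), 1 of 8 for cortex and hippocampus (0.76% of 17773) and 0 of 8 for cerebellum and hippocampus (0.0664% of 16574). The median r over all genes was 0.04, 0.05 and 0.04 in that order of pairs. Genes with an r as high as that of Sgk1 made up 0.0239%, 0.326% and 0.103% of all genes.

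Values of single mice are given for 3 groups. In the young naive group, animal 20 had 164, 109 and 95.8 CPM of Sgk1 in cerebellum, cortex and hippocampus, and animal 12 had 70.7, 51.9 and 61.9 CPM. In CPM animal 20 was the highest and animal 12 the lowest or next to lowest of the 4 mice in each region. The hippocampus library of animal 20 had low depth and low markers, and on the scaled deviations animal 17 lay above it there. Among plasma mice of 18 months, animal 7 had 117, 115 and 158 CPM and animal 10 had 88.3, 61.9 and 73.2 CPM. Among PBS mice of 18 months, animal 2 had 99.1, 106 and 92.1 CPM and animal 11 had 77.1, 50.3 and 58.1 CPM. Both groups held mice above and mice below their mean in all 3 regions. Across the 8 groups, 23 of 29 mice lay on the same side of their group's mean in all 3 regions for Sgk1, against a median of 8 mice over all 16500 genes tested in every region. As many or more did so for 0.0485% of all genes. The counts for the other members were 15 for Tsc22d3, 12 for Errfi1, 11 for Fkbp5, 10 for Pdk4, 9 for Plin4 and 8 each for Zbtb16 and Mt2.

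Without the 2 mice farthest from the median, r was 0.81 for cerebellum and cortex, 0.79 for cerebellum and hippocampus and 0.75 for cortex and hippocampus. With deviations taken from the mean of mice that share both the group and the unexplained title number (27 mice), r was 0.86, 0.74 and 0.70 in that order (permutation p = 1e-05, 0.00026 and 0.00042). In the 15 mice of groups with at least 2 mice whose 3 libraries all passed on depth and markers, r was 0.91, 0.73 and 0.78 (permutation p = 0.00795, 0.0581 and 0.0693), and 0 of the 8 genes, as 0 of all genes, passed the adjusted threshold in them. The lower number of mice also lowers what such a test can call.

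**Figure D4:**
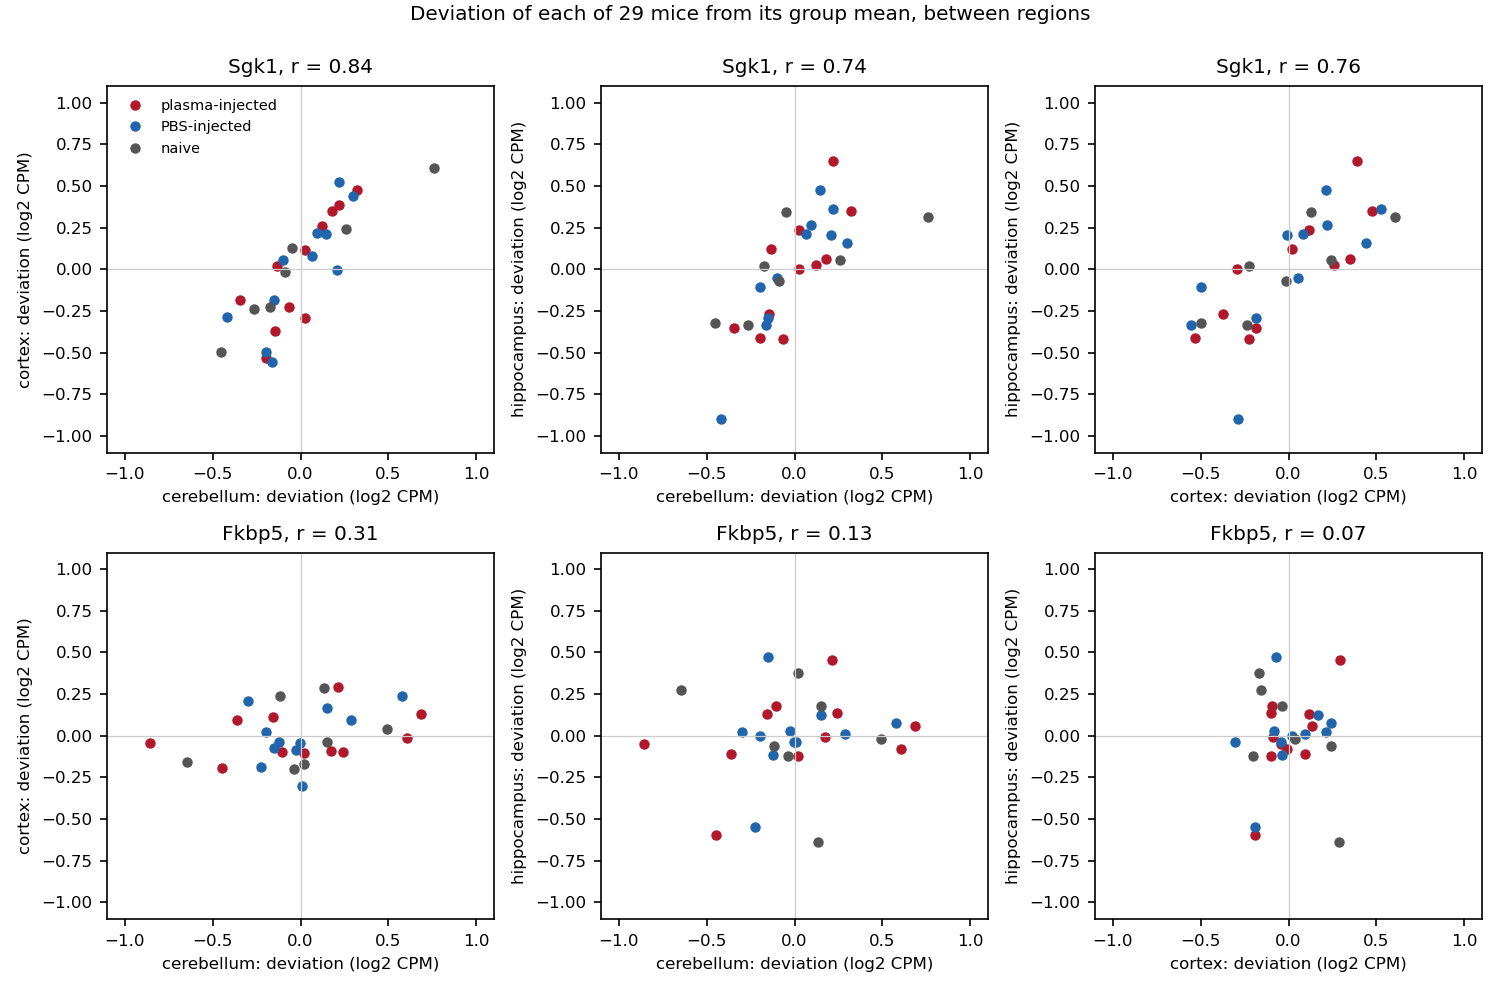
Deviation of each of 29 mice from its group mean (log2 CPM) in one region against another, for Sgk1 (upper row) and Fkbp5 (lower row); red is plasma-injected, blue PBS-injected and grey naive. The Sgk1 points lie along a rising line in each panel (r = 0.84, 0.74 and 0.76), and the Fkbp5 points do not (r = 0.31, 0.13 and 0.07).

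Other members shared this less. Tsc22d3 had r = 0.60, 0.52 and 0.50 for cerebellum and cortex, cerebellum and hippocampus, and cortex and hippocampus (permutation p = 0.00205, 0.0134 and 0.0109, adjusted p 0.349, 0.801 and 0.397) and rho = 0.57, 0.53 and 0.41 (permutation p = 0.00431, 0.0094 and 0.0465). Errfi1 had r = 0.47, 0.34 and 0.36 (permutation p = 0.0588, 0.0674 and 0.141) and rho = 0.55, 0.32 and 0.33. Fkbp5 had r = 0.31, 0.13 and 0.07 (permutation p = 0.125, 0.585 and 0.792). Mt2 had r = 0.52 and rho = 0.41 for cerebellum and cortex (permutation p = 0.0244 for r). Of the 24 relations between regions computed for the 8 genes, 21 had r above 0, 7 had an unadjusted p under 0.05 and 2 passed when adjusted over all genes. Ranked by their lowest r over the 3 pairs of regions among 16500 genes, Sgk1 was number 10, Tsc22d3 number 70, Errfi1 number 191 and Fkbp5 number 2315.

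**Figure D5:**
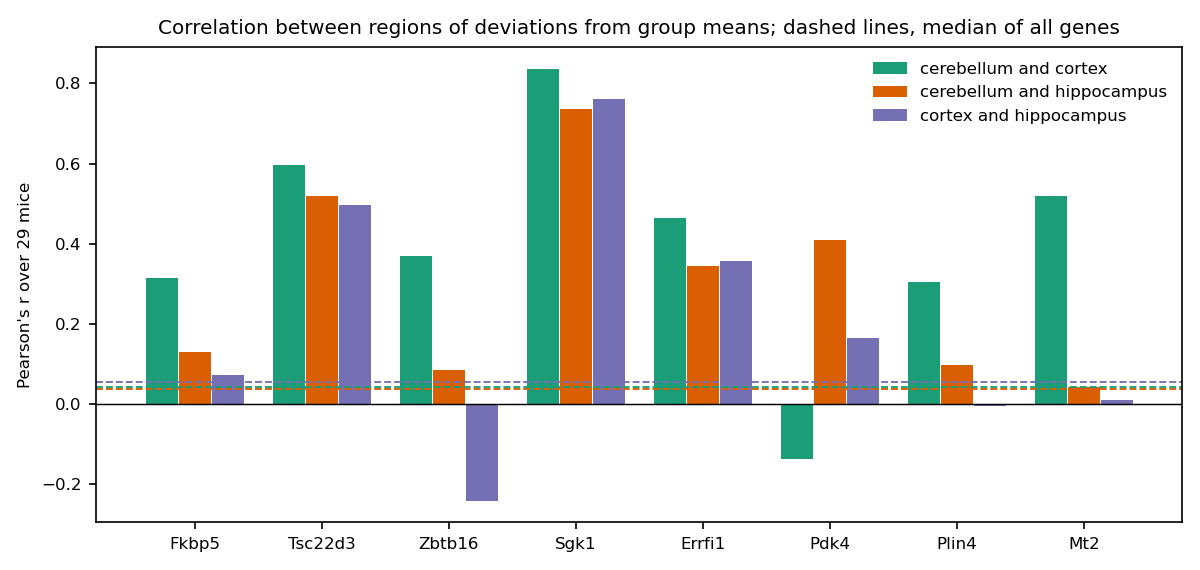
Pearson's r over 29 mice between regions for each of the 8 genes, from deviations from group means; bars are the 3 pairs of regions and dashed lines the median r of all genes. Sgk1 stands at 0.84, 0.74 and 0.76, Tsc22d3 between 0.50 and 0.60, and Zbtb16 and Pdk4 have bars on both sides of 0, with Plin4 at 0 for cortex and hippocampus.

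Within a region, Sgk1 was compared with the other members. Sgk1 and Tsc22d3 deviations correlated with r = 0.76 and rho = 0.71 in hippocampus (permutation p = 0.00049 for both), with r = 0.70 and rho = 0.65 in cortex (p = 0.00025 and 0.00124 by permutation), and with r = 0.43 in cerebellum (permutation p = 0.0572). Without the 2 farthest mice r was 0.66 in hippocampus and 0.70 in cortex. Sgk1 and Errfi1 had r of 0.62, 0.61 and 0.62 in cerebellum, cortex and hippocampus (permutation p = 0.00157, 0.00353 and 0.0157), and of 0.23, 0.73 and 0.26 in the 15 mice whose libraries all passed. With Fkbp5, Sgk1 had r = 0.66 and rho = 0.61 in cerebellum (permutation p = 0.00299 and 0.00329), and r = 0.12 in cortex and 0.40 in hippocampus. With Zbtb16 it had r = 0.36, 0.43 and 0.53 in cerebellum, cortex and hippocampus (permutation p = 0.146, 0.0484 and 0.0886). With Pdk4 the sign differed between regions, with r = 0.47, -0.33 and 0.49 (permutation p = 0.00263, 0.115 and 0.0339). Several of these r changed sign in the 15 mice whose libraries all passed. There, in cerebellum, cortex and hippocampus, Sgk1 had r = -0.09, 0.12 and 0.76 with Pdk4. It had 0.67, 0.47 and -0.27 with Fkbp5, and 0.83, 0.20 and -0.16 with Zbtb16. With Tsc22d3 it had 0.79, 0.62 and 0.86. Fkbp5 went with Errfi1 in hippocampus (r = 0.80 and rho = 0.72, permutation p = 0.00019 and 0.00029) and in cerebellum (r = 0.71 and rho = 0.67, permutation p = 0.00139 and 0.00172). Without the 2 farthest mice these r were 0.80 and 0.57, and in the 15 mice whose libraries all passed they were 0.55 and 0.50. Tsc22d3 went with Zbtb16 in cortex (r = 0.78 and rho = 0.66, permutation p = 0.00044 and 0.00311) and cerebellum (r = 0.66 and rho = 0.64, permutation p = 0.0023 and 0.00208). Of 84 relations among the 8 genes, 21 had an unadjusted permutation p under 0.05. These points share a library, its depth and its dissection.

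Genes were ranked by their mean r with Sgk1 over the 3 regions, 16499 in all. Of the first 10, 5 came from the 8 members or from the list of 25 other glucocorticoid-induced genes. These were Nfkbia, an inhibitor of NF-kappaB (number 5, mean r 0.67), Tsc22d3 (number 6, 0.63), Errfi1 (number 8, 0.61), the mTOR inhibitor Ddit4 (number 9, 0.58) and Cebpd, a transcription factor (number 10, 0.57). The first was Gm19439 (0.77), followed by Tob2 (0.73). The other members came lower, with Zbtb16 at number 58 (0.44), Fkbp5 at 125 (0.39), Plin4 at 1013 (0.25), Pdk4 at 1784 (0.21) and Mt2 at 3376 (0.14). This ranking was chosen after the values were seen. The mean of the 25 listed genes was itself shared between regions (r = 0.68 for cerebellum and cortex, 0.48 for cerebellum and hippocampus, 0.64 for cortex and hippocampus). Of the 25, 16 had r above 0 in all 3 pairs (64%, against 23.4% of all 16500 genes), and the median of their lowest r was 0.08, against -0.14 for all genes. Such shares were not particular to this list. They were 66.7% for endothelium, 66.7% for mural cells and meninges, 77.8% for immediate early genes and 80% for erythroid genes. Of the 8 genes 62.5% did so, and the remaining lists had 45.5% or less. Examples chosen after their values were seen are the phosphatase Dusp1 (r = 0.82, 0.78 and 0.62), Lcn2, a secreted lipocalin (0.79, 0.75 and 0.71), and Nfkbia (0.58, 0.57 and 0.70), while Klf9 was not (-0.22, 0.00 and -0.17). The genes most like Fkbp5 by the same measure were Cpne6 (mean r 0.73), Scn3b, Lrrtm1, Ak5 and Grhl1 (0.66), with r = 0.89 for Cpne6 in hippocampus. Fkbp5 in hippocampus had r = 0.88 with the mean of 6 hippocampal neuron markers, and its low values of 41.7, 38.8 and 37.5 CPM were libraries with low markers.

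Several other measures moved with Sgk1, and their part in it was not tested. The mean of 5 erythroid genes was shared between regions as Sgk1 was (r = 0.77, 0.76 and 0.72) and went against Sgk1 within regions (r = -0.49 in cerebellum, -0.26 in cortex and -0.41 in hippocampus). The mean of the immediate early genes was also shared (0.67, 0.59 and 0.50), with r to Sgk1 of 0.56, 0.44 and 0.25 in the 3 regions, and Fos alone had r = 0.67, 0.68 and 0.60 between regions. In cerebellum the mean of 8 cerebellar neuron markers went against Sgk1 (r = -0.71), and the mean of 9 oligodendrocyte markers went with it (0.56), while in cortex and hippocampus the oligodendrocyte values were -0.13 and 0.31. In cortex the astrocyte mean (-0.59) and the microglia mean (-0.46) went against Sgk1, and the cortical neuron mean went with it (0.44). In hippocampus the means of hippocampal neurons (0.51) and choroid plexus (0.49) went with it. Between regions, the mean of microglia markers had r = 0.04, 0.40 and 0.51, and that of mural cells and meninges had 0.53, 0.19 and 0.15, both positive in all 3 pairs. Oligodendrocyte, astrocyte and choroid plexus means were not positive in all pairs, with r between -0.31 and 0.28, nor was the endothelium mean (0.25, -0.15 and 0.23).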

How the data were processed

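The count table holds whole-number read counts per gene symbol that the authors deposited for 96 libraries, 35486 symbols of which 6251 were at 0 throughout. Per the labels' protocols, RNA was purified with RNeasy columns and made into libraries by Smart-Seq2 and Nextera XT. Trim Galore 0.3.7, STAR 2.5.3a, DESeq2 and the build GRCm38 are named in the submitters' processing notes, and the counting tool is not given in the sources used here. Total counts per library range over 851288 to 23768385, and low libraries give low genes such as Plin4 few counts.

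Counts were fitted with edgeR 4.0.16 (quasi-likelihood, TMM scaling, filterByExpr with a minimum count of 10) in R 4.3.3, each region alone with 1 coefficient per group over its 29 libraries, the second experiment alone over 9, and the regions together over 87. A difference was called at a Benjamini-Hochberg adjusted p under 0.05 over all genes of the fit. Values per library (CPM) are counts divided by the library total and multiplied by 1000000. SE of log2 fold changes is the change divided by the root of the F statistic, and 95% intervals come from it. Means over the regions of a mouse were tested with limma 3.58.1. Correlations used log2 CPM (prior count 2, TMM) as deviations from group means, with 100000 permutations within groups, and scipy 1.17.1. Animal numbers in the labels mark the mouse that gave each region, so libraries pair across regions by the label and not between treatment groups. Fits were tested on simulated data. Alternatives were DESeq2 1.42.0, limma-voom, other scaling, no filter, only the groups compared, the mouse in the fit, and leaving out each mouse and all libraries of low depth or low markers. P-values of the fits per region and of the means per mouse measure the spread between mice. Those of the fit of 87 libraries take the regions of a mouse as independent and measure the spread between libraries, unless the mouse is in the fit.

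The 8 genes and the other lists were chosen with earlier results of these data known. The text names the 8 genes throughout, and from each other list up to 4 genes per injection comparison, and up to 2 per other comparison, that were called with groups that did not overlap, largest change first, with the 5 genes most like Fkbp5. Other genes, such as Bhlhe41, Hlf and those set beside Sgk1 over mice, were named after their values were seen. Likeness to Sgk1, the scaling by library totals alone, the deviations within title number and the test between plasma changes of Pdk4 were added after seeing the data. RefSeq promoters (GRCm38.p6) and GENCODE M21 gave sequences and coordinates.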

Additional observations from a re-analysis of the deposited data

Results flagged for a closer look

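Of 112 sets of 4 or 5 libraries of one group, region and gene, 11 held 1 library far from the rest by Dixon's test, against about 1 in 20 by chance. In long PBS mice, animal 24 stood apart for Zbtb16 in cortex at 65.5 CPM (others 48.8 to 51.6), for Mt2 in cortex at 44.5 CPM (others 26.4 to 29.1) and for Mt2 in hippocampus at 36.2 CPM (others 51.1 to 52.4), where its own markers were low. Animal 29 of the same group had 15.3 CPM of Fkbp5 in cerebellum (others 8.61 to 9.10), from 13 counts in a library of 851288, and 13.4 CPM of Pdk4 in hippocampus (others 8.47 to 8.99). In plasma mice of 18 months, animal 7 had 12.8 CPM of Pdk4 in hippocampus (others 7.24 to 8.85). In PBS mice of 18 months, animal 8 had 2.83 CPM of Plin4 in hippocampus (others 4.08 to 4.30) and animal 11 had 45.6 CPM of Errfi1 in cerebellum (others 56.4 to 58.5). In PBS mice of the second experiment, animal 71 had 107.6 CPM of Zbtb16 (others 91.0 to 91.5). Young naive animal 20 had 60.0 CPM of Zbtb16 in hippocampus (others 96.9 to 103), in a library of low depth and low markers, and 75.2 CPM of Errfi1 in cerebellum (others 59.5 to 60.9).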

How the results depend on the processing

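In the comparisons, 3768 values of the 8 genes were recomputed under the alternatives. Of these, 3764 stayed on the same side of the threshold, 0 were called with the other sign, and 285 uncalled values had the other sign. In the injection comparisons 0 of 1376 values passed. Without scaling factors, Sgk1 (-0.20) and Plin4 (-0.36) were called for cortex over cerebellum, and Errfi1 (-0.18) and Mt2 (-0.17) for hippocampus over cerebellum. The replicate block, that is the mouse in the fit, changed no call of the 8 genes; the log2 difference of the Plin4 change (PBS over naive) between hippocampus and cortex was 1.24 with it and 0.99 without it. Plin4 in hippocampus, PBS over naive, ranged from 0.73 to 1.09, the lowest without libraries of low markers (unadjusted p = 0.0610). In mice whose libraries all passed, the number of the 8 genes called for correlation was 0 for cerebellum and cortex and 0 for cortex and hippocampus, against 1 each as reported. There, r no longer had a permutation p under 0.05 for Sgk1 (0.73 cerebellum and hippocampus, 0.78 cortex and hippocampus), Tsc22d3 (0.30, 0.67 and 0.24) and Mt2 (0.60 cerebellum and cortex), and within title number the same held for Tsc22d3 between cerebellum and hippocampus (0.42). The number of all genes called moved more. PBS over naive in hippocampus called 0, and 15 with only the groups compared. Age in naive mice called 411 in cerebellum (194 without naive 18-month animal 6, 678 with limma-voom), 21 in cortex (3 to 32) and 13 in hippocampus (0 to 24). PBS at 22 over 18 months called 27 in cerebellum (1 to 483), 1 in cortex (0 to 49) and 0 in hippocampus (up to 24), and plasma in the second experiment called 0, and 21 with DESeq2. The cause of these shifts was not tested. Few counts limit Plin4.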
